A study of Caenorhabditis elegans with 12 samples.

Results

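Genes that build the proteasome, and genes that attach, remove or recognise ubiquitin, were followed through a chromatin study of acetylated histone H4 in Caenorhabditis elegans. They were picked by name: every gene in the deposited H4K5ac or H4K8ac table whose symbol begins with pas, pbs, rpt, rpn, ubc, uba, ubl, ubq, ubh, usp, cul, skr, csn, ufd or otub and a number. This rule found 35 of the 7553 genes listed in either table, of which 12 were proteasome subunits and 23 belonged to the ubiquitin pathway. Of them 30 were listed for H4K5ac, 24 for H4K8ac and 19 for both marks. No listed gene had a uba, ubl, ubh or ufd name.

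The study precipitated chromatin of adult N2 worms, taken whole, with an antibody against histone H4 acetylated at lysine 5 (H4K5ac) or at lysine 8 (H4K8ac). Each mark had 3 immunoprecipitated (IP) libraries and 3 input libraries of unprecipitated chromatin, so the 12 libraries formed 4 groups. All 4 groups shared the wild-type genotype Bristol N2, a diet of Escherichia coli OP50 and growth at 20 °C, and no group carried a mutation or a further treatment. The labels number the replicates but do not tell whether each came from its own culture, so a p-value here measures the spread between libraries, which may be technical. Since whole animals were used, a mark at a lower level in all cells and a mark present in fewer cells cannot be told apart.

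The proteasome is a barrel of alpha and beta rings, the core particle, in which proteins are cut, capped by a regulatory particle whose ATPases unfold the substrate and feed it in. Proteins are sent there when a chain of enzymes joins ubiquitin to them: an activating enzyme (E1), a conjugating enzyme (E2) and a ligase (E3), many of the ligases being built on a cullin. Deubiquitinases cut ubiquitin off again. Acetylation of the H4 tail is a mark commonly found at active genes, where bromodomain proteins can bind it.

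The deposited values were estimated read counts, 1 per listed gene and library. Summed over the listed genes of a mark, they ran from 5460429 to 9156392 per library, which is not the sequencing depth. The counts are given below as CPM, a library's counts divided by this sum and scaled between libraries with edgeR's TMM factors. A fold is the log2 ratio of IP over input, fitted with edgeR's quasi-likelihood test on the whole table of a mark, with p-values adjusted by the Benjamini-Hochberg method over all its genes and a threshold of 0.05. The tables list only genes with a region called for the mark. Thus "higher" and "lower" compare a gene with the typical listed gene, and a lower gene is not shown to lack the mark. The lists are cut by IP over input, the same ratio that the folds measure. The lowest fold of any listed gene was -0.39 for H4K5ac and -0.34 for H4K8ac. Shares of higher and lower genes therefore describe listed genes only. Input levels fell with the number of other genes of any kind meeting the stretch of 2 kb to either side of a gene's start site (Spearman correlation -0.51 over 5339 genes for H4K5ac and -0.50 over 5370 for H4K8ac, a description across genes). Counts of a gene with a close neighbour may therefore be shared with it, and some of these neighbours are named below. With protein-coding neighbours alone the correlation was -0.21 for each mark. None of the listed proteasome genes, 0 of 9 for H4K5ac and 0 of 7 for H4K8ac, was free of a protein-coding neighbour. Ubiquitin pathway genes were much alike, with 1 of 21 and 1 of 17 free. For this count a neighbour could lie farther off than 2 kb, where 2 such stretches can still meet. IP libraries differed in how widely their genes spread: the range from the 5% to the 95% point of the log2 ratio to the mean input was 1.49, 1.16 and 0.98 for H4K5ac IP replicates 1, 2 and 3. It was 1.13, 0.76 and 0.95 for the H4K8ac IP replicates, and 0.12 to 0.28 for the inputs.

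For each mark, most pathway genes listed for it carried more of it than the typical listed gene. For H4K5ac, 23 of 30 (76.7%) were higher in the IP than in the input, against 32.2% of all 5632 genes in that table, 2 were lower, against 29.5%, and 5 did not pass the threshold. In the same number, 23, every IP library lay above every input library, against 35.2% of all genes. The median log2 fold of the 30 genes was 0.48, and that of all genes -0.02. For H4K8ac, 17 of 24 (70.8%) were higher, against 31.2% of all 5671 genes, 3 were lower, against 33.6%, and 4 did not pass. Every IP library was above every input library in 17 of them, against 32.7% of all genes, and the median log2 fold was 0.33 against -0.04. Scaling by total count alone moved folds down: 24% of all genes were then higher and 46.6% lower for H4K5ac, and 20 and 3 of the 30 pathway genes. For H4K8ac 25.6% of all genes were then higher and 44% lower, and 17 and 3 of the 24 pathway genes. Proteasome subunits, E2 enzymes and deubiquitinases made up most of the higher genes, and SKP1-related adaptors most of the lower ones.

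**Figure D1:**
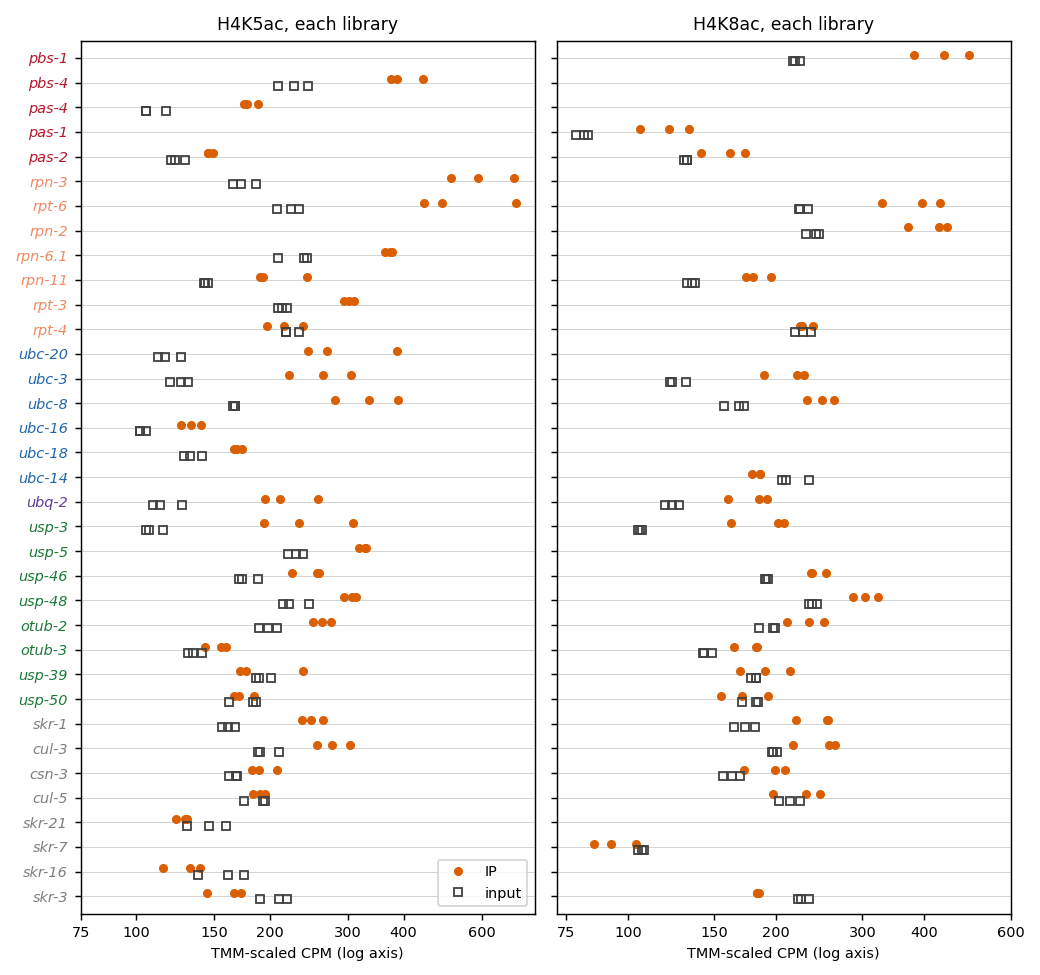
TMM-scaled CPM (log axis) of each pathway gene in every IP library (filled circles) and input library (open squares), H4K5ac on the left and H4K8ac on the right; a blank row means that the gene is not in that table. The IP circles of rpn-3, from 512 to 708, lie well right of its inputs, from 165 to 186, while those of skr-3 lie left of theirs for both marks.

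Among core particle genes, pbs-1, which encodes a subunit of the beta ring, stood highest for H4K8ac. Its IP libraries reached 494, 382 and 440 CPM and its inputs 217, 219 and 224. All IP values were well above all inputs, and the log2 fold was 1.00 ± 0.10 (SE, n = 3 against 3, edgeR adjusted p = 5.68e-06). Its region on chromosome IV, from 1704801 to 1714599 in WBcel235 coordinates, was 21st in the H4K8ac list, which is ordered by IP over input, and is annotated in the file as promoter. Its window also meets the genes pugs-4, K08D12.3 and rpi-2. In the H4K5ac table the gene had no value of its own: the region that covers it is named for K08D12.3 and was 12th in that list. That place follows the count of K08D12.3 and does not give the level at pbs-1.

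The alpha ring was represented by pas-1, pas-2 and pas-4, and the beta ring for H4K5ac by pbs-4. The pbs-4 gene had H4K5ac levels of 443, 387 and 374 CPM in the IP against 244, 227 and 209 in the input. The groups did not overlap, and the log2 fold was 0.82 ± 0.11 (edgeR adjusted p = 6.78e-05). The pas-4 gene had 188, 178 and 175 CPM against 105, 105 and 117. Its IP values were close together and above every input, and the log2 fold was 0.74 ± 0.07 (edgeR adjusted p = 1.49e-05). The pas-1 gene, listed for H4K8ac alone, had 133, 106 and 121 CPM against 82.9, 81.4 and 78.5. The groups stood apart here too, with a log2 fold of 0.57 ± 0.07 (edgeR adjusted p = 3.22e-05).

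The pas-2 gene was the core particle gene with the smallest folds. For H4K5ac it had 145, 149 and 145 CPM in the IP and 122, 129 and 120 in the input. For H4K8ac it had 173, 141 and 161 against 130, 132 and 132. IP and input did not overlap for either mark, and the log2 folds were 0.24 ± 0.07 (edgeR adjusted p = 0.00872) and 0.27 ± 0.07 (edgeR adjusted p = 0.00374). The H4K5ac call was lost when libraries were scaled by total count alone (log2 fold 0.10, edgeR adjusted p = 0.217). All 3 core particle genes listed for H4K5ac and all 3 listed for H4K8ac were higher, against 32.2% and 31.2% of all genes. Their median log2 folds were 0.74 and 0.57.

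In the regulatory particle, rpn-3, a subunit of its lid, had the highest H4K5ac fold of all 30 genes. Its IP libraries held 708, 587 and 512 CPM and its inputs 186, 172 and 165. The lowest IP value was far above the highest input, and the log2 fold was 1.79 ± 0.14 (edgeR adjusted p = 7.85e-06). Only 2 genes of the H4K5ac table had a higher fold, the topmost being hsp-60, a mitochondrial chaperonin, at 1.94. The region of rpn-3 on chromosome III, from 8442601 to 8454399, was 3rd in the list and touches 4 protein-coding genes. The window of rpn-3 is shared with hsp-110, a chaperone gene, so its reads may be divided between these genes. For H4K8ac rpn-3 had no value of its own, since its covering region, 252nd in that list, is named for mrpl-32. The place of that region follows the count of mrpl-32.

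Of the ATPases that form the base of the regulatory particle, rpt-6 was high for both marks and rpt-3 was moderately high. The fold of rpt-4 stayed near that of the typical listed gene, which does not show that it lacks the marks. The rpt-6 gene had 716, 488 and 444 CPM in the H4K5ac IP against 233, 223 and 207 in the input. In the H4K8ac IP it had 431, 328 and 397 against 224, 223 and 232. All IP values exceeded all inputs for each mark, H4K5ac IP replicate 1 being the highest by a wide margin, and the log2 folds were 1.31 ± 0.17 (edgeR adjusted p = 6.25e-05) and 0.77 ± 0.10 (edgeR adjusted p = 3.28e-05). Its window meets that of his-72, a histone H3.3 gene. The rpt-3 gene, listed for H4K5ac, had 294, 310 and 301 CPM against 213, 219 and 209. These groups were tight and apart, with a log2 fold of 0.50 ± 0.08 (edgeR adjusted p = 0.000248).

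The rpt-4 gene was the only proteasome gene listed that passed no test. Its H4K5ac values were 197, 237 and 215 CPM in the IP and 217, 232 and 217 in the input. Its H4K8ac values were 238, 224 and 226 against 219, 236 and 227. IP and input overlapped for both marks, with log2 folds of -0.04 ± 0.08 (edgeR adjusted p = 0.666) and 0.01 ± 0.06 (edgeR adjusted p = 0.839). The sign of either value turned under at least 1 other setting. Its window is crowded, meeting F23F1.10, nfyc-1 and rpoa-49.

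Further non-ATPase subunits were all higher. The rpn-6.1 gene, another lid subunit, had 376, 372 and 364 CPM in the H4K5ac IP against 209, 239 and 242 in the input. The IP libraries were nearly equal and above every input, with a log2 fold of 0.69 ± 0.09 (edgeR adjusted p = 0.000101). The rpn-2 gene, which encodes a large scaffold subunit of the base, was listed for H4K8ac with 445, 372 and 429 CPM against 245, 230 and 241. There was no overlap, and the log2 fold was 0.80 ± 0.09 (edgeR adjusted p = 1.56e-05).

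The rpn-11 gene encodes the deubiquitinase built into the lid, which releases ubiquitin from substrates as they enter. It had 243, 193 and 190 CPM in the H4K5ac IP against 143, 145 and 142 in the input. In the H4K8ac IP it had 195, 174 and 180 against 132, 137 and 135. The groups did not overlap, and H4K5ac IP replicate 1 again stood above the others; the log2 folds were 0.54 ± 0.09 (edgeR adjusted p = 0.000524) and 0.45 ± 0.06 (edgeR adjusted p = 2.69e-05). In all, 5 of 6 regulatory particle genes were higher for H4K5ac (against 32.2% of all genes) and 3 of 4 for H4K8ac (against 31.2%). Their median log2 fold was 0.61 for each mark.

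E2 enzymes, which take ubiquitin from the E1 and pass it on with a ligase, were the class with the highest median for H4K5ac. All 5 listed ubc genes were higher, against 32.2% of all genes, with a median log2 fold of 1.01. The ubc-20 gene had 387, 269 and 244 CPM in the IP and 126, 116 and 112 in the input. Every IP value was above every input, IP replicate 1 being the highest, and the log2 fold was 1.35 ± 0.14 (edgeR adjusted p = 2.05e-05). Its region on chromosome III was 24th in the list, and its window meets mxl-2, a transcription factor gene.

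The ubc-3 gene, the worm counterpart of yeast CDC34, whose product works with SKP1-cullin ligases, was high for both marks. It had 304, 263 and 221 CPM in the H4K5ac IP against 131, 126 and 119 in the input. In the H4K8ac IP it had 228, 189 and 221 against 131, 122 and 123. The groups were apart for each mark, with log2 folds of 1.07 ± 0.10 (edgeR adjusted p = 1.21e-05) and 0.76 ± 0.07 (edgeR adjusted p = 2.56e-06). No other protein-coding gene met its window, though 1 gene of another kind did. The ubc-8 gene, whose window met no other gene, had 388, 334 and 280 CPM in the H4K5ac IP against 167, 167 and 165, and 262, 231 and 248 CPM in the H4K8ac IP against 172, 168 and 157. Its IP libraries were all above its inputs, and its log2 folds were 1.01 ± 0.11 for H4K5ac (edgeR adjusted p = 2.4e-05) and 0.57 ± 0.06 for H4K8ac (edgeR adjusted p = 6.14e-06).

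The other E2 genes had smaller folds. Listed for H4K5ac alone, ubc-16 and ubc-18, the latter an E2 that acts with the ligase ARI-1, had log2 folds of 0.37 ± 0.07 and 0.34 ± 0.07. The ubc-14 gene, listed for H4K8ac alone, went the other way, with 186, 179 and 186 CPM in the IP and 210, 233 and 206 in the input. All its IP libraries were below all its inputs, and the log2 fold was -0.24 ± 0.06 (edgeR adjusted p = 0.00293). Thus 2 of 3 E2 genes were higher and 1 was lower for H4K8ac, against 31.2% and 33.6% of all genes.

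Ubiquitin itself entered through ubq-2, which encodes ubiquitin fused to ribosomal protein L40. Its level in the H4K5ac IP was 221 ± 32.0 CPM (SD, n = 3), ranging from 195 to 257, against 117 ± 9.08 in the input. In the H4K8ac IP it had 192, 160 and 185 CPM against 119, 123 and 127. IP and input stood apart for both marks. The log2 folds were 0.92 ± 0.10 (edgeR adjusted p = 2.69e-05) and 0.54 ± 0.07 (edgeR adjusted p = 2.5e-05). The same promoter region, on chromosome III from 12976401 to 12981199, was listed for each mark, and it holds 4 protein-coding genes.

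Deubiquitinases were mostly higher, 6 of 8 for H4K5ac (against 32.2% of all genes) and 5 of 7 for H4K8ac (against 31.2%), with median log2 folds of 0.41 and 0.29 and none lower. The usp-3 gene led the class. It had 308, 233 and 194 CPM in the H4K5ac IP against 115, 105 and 107 in the input, and 208, 162 and 202 in the H4K8ac IP against 105, 106 and 107. The groups were far apart for each mark, and the log2 folds were 1.17 ± 0.14 (edgeR adjusted p = 3.46e-05) and 0.85 ± 0.08 (edgeR adjusted p = 3.27e-06). The regions listed with its values were short, 0.8 kb for H4K5ac and 0.6 kb for H4K8ac. They lie at 2228 and 4128 bp from the start site, in an intron and an exon. Of the 2 regions that met the gene for each mark, the longest measured 15.6 kb for H4K5ac and 17.4 kb for H4K8ac. The window of usp-3 meets rps-6, a ribosomal protein gene, so this fold may be in part that of rps-6.

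Smaller folds were found for usp-46, a deubiquitinase that keeps the glutamate receptor GLR-1 from degradation in neurons (0.47 ± 0.08 for H4K5ac and 0.34 ± 0.05 for H4K8ac), and for usp-48 (0.42 ± 0.09 and 0.36 ± 0.07). The ovarian tumour family member otub-2 was higher for both marks (0.40 ± 0.07 and 0.26 ± 0.06). Its relative otub-3 was higher for H4K8ac (0.29 ± 0.06), but its H4K5ac call (0.18 ± 0.07, edgeR adjusted p = 0.0484) was lost under several settings, for example without H4K5ac IP replicate 3 (edgeR adjusted p = 0.112). The usp-5 gene, listed for H4K5ac, had a log2 fold of 0.51 ± 0.08. Neither usp-39 (0.03 ± 0.11 and 0.09 ± 0.07) nor usp-50 (-0.03 ± 0.08 and -0.05 ± 0.07) passed for either mark. Without H4K8ac IP replicate 2, the IP library of that mark with the narrowest spread, usp-39 passed at 0.20 (edgeR adjusted p = 0.000945).

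Cullin-RING genes lay nearer to the background of all listed genes. For H4K5ac 3 of 7 were higher (42.9%, against 32.2% of all genes) and 2 lower (28.6%, against 29.5%), with a median log2 fold of 0.01. For H4K8ac 3 of 6 were higher, against 31.2%, and 2 lower (33.3%, against 33.6%), with a median of 0.16. On the high side, skr-1, a SKP1 adaptor that ties substrate receptors to the cullin, had 248, 263 and 236 CPM in the H4K5ac IP against 161, 167 and 156, and 254, 220 and 255 in the H4K8ac IP against 181, 164 and 173. IP and input stood apart, with log2 folds of 0.62 ± 0.07 (edgeR adjusted p = 2.69e-05) and 0.49 ± 0.07 (edgeR adjusted p = 3.83e-05). It lies beside its close relative skr-2 in a single region, so reads of these genes may be shared. The cul-3 gene, scaffold of the ligase that removes the meiotic katanin MEI-1 from embryos, had 0.50 ± 0.09 and 0.31 ± 0.07. The csn-3 gene, a subunit of the COP9 signalosome that strips the modifier NED-8 from cullins, had 0.21 ± 0.07 and 0.25 ± 0.07. The H4K5ac call of csn-3 was lost in the total count scaling (0.08) and without any of 3 single libraries: IP replicate 2 (0.15), input replicate 2 (0.19) or input replicate 3 (0.22). The cul-5 gene did not pass for either mark (0.01 ± 0.07 and 0.07 ± 0.07), although without H4K8ac IP replicate 2 it did, at 0.18 (edgeR adjusted p = 0.00203).

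On the low side stood further skr genes, relatives of SKP1 that are far more numerous in the worm than in yeast or mammals. The skr-3 gene was the lowest for both marks. It had 144, 172 and 166 CPM in the H4K5ac IP against 190, 210 and 219 in the input, and 185, 183 and 183 in the H4K8ac IP against 222, 225 and 233. Every IP library was below every input for each mark, and the log2 folds were -0.36 ± 0.08 (edgeR adjusted p = 0.00321) and -0.31 ± 0.05 (edgeR adjusted p = 0.000186). The skr-16 gene, listed for H4K5ac alone, had 115, 139 and 132 CPM against 138, 175 and 161. Here the groups overlapped by a single value, and the log2 fold was -0.30 ± 0.10 (edgeR adjusted p = 0.0179). That call was lost without input replicate 2 (-0.22, edgeR adjusted p = 0.103) or input replicate 3 (-0.29, edgeR adjusted p = 0.0563).

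The skr-7 gene, listed for H4K8ac alone, had 85.2, 104 and 92.2 CPM in the IP against 105, 108 and 107 in the input. All IP values were below all inputs, IP replicate 2 only just, and the log2 fold was -0.19 ± 0.07 (edgeR adjusted p = 0.024). Leaving out any library of this mark other than IP replicate 2 ended that call, with adjusted p-values from 0.056 to 0.107 and log2 folds from -0.20 to -0.11. Its region also covers skr-14. The skr-21 gene, the only one of the 35 on the X chromosome, had 130, 123 and 129 CPM in the H4K5ac IP against 130, 146 and 159. Its IP libraries were all below its inputs, the closest pair only narrowly. It missed the threshold at -0.19 ± 0.08 (edgeR adjusted p = 0.0593), and passed it with the replicate number as a block (-0.19, edgeR adjusted p = 0.0404). It also passed with total count scaling (-0.32, edgeR adjusted p = 0.00403), with DESeq2 (-0.19, adjusted p = 0.0307), without IP replicate 1 (-0.21, edgeR adjusted p = 0.0203) and without input replicate 1 (-0.26, edgeR adjusted p = 0.0165). In that mark's libraries same-numbered IP and input replicates deviated together. In all, every IP library was below every input in 2 of 30 pathway genes for H4K5ac (skr-3 and skr-21), against 33.1% of all genes, and in 3 of 24 for H4K8ac (skr-3, skr-7 and ubc-14), against 36.5%.

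**Figure D2:**
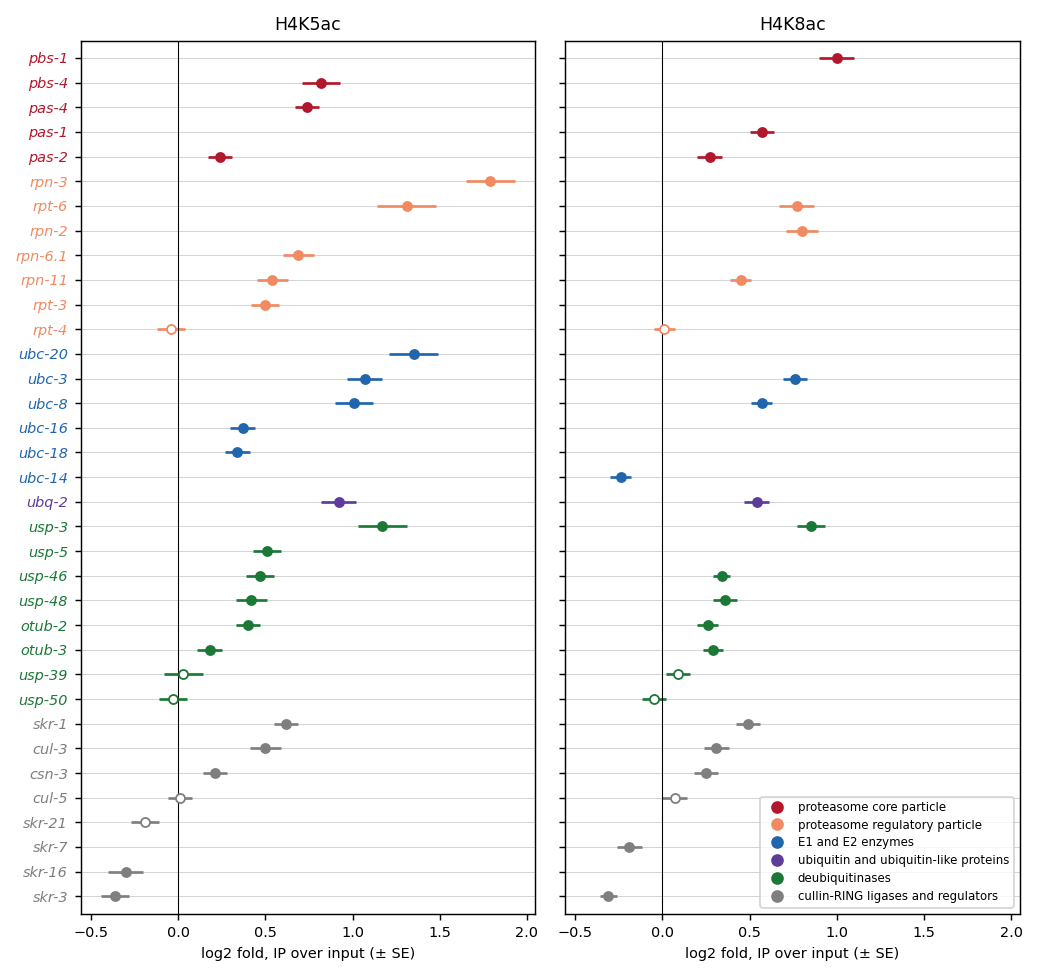
Log2 fold of IP over input with its standard error for each listed gene, coloured by class, H4K5ac left and H4K8ac right; filled circles passed an edgeR adjusted p of 0.05 and open circles did not. Values run from -0.36 (skr-3) to 1.79 (rpn-3) for H4K5ac and from -0.31 (skr-3) to 1.00 (pbs-1) for H4K8ac.

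Proteasome subunits as a class had a higher median fold than the ubiquitin pathway genes for both marks. For H4K5ac, 8 of 9 proteasome genes were higher and none was lower, with a median log2 fold of 0.69 and a range from -0.04 to 1.79. Of 21 ubiquitin pathway genes, 15 were higher and 2 lower, with a median of 0.40 and a range from -0.36 to 1.35. Over all H4K5ac genes 32.2% were higher and 29.5% lower. For H4K8ac, 6 of 7 proteasome genes were higher and none lower (median 0.57, from 0.01 to 1.00), and 11 of 17 ubiquitin pathway genes were higher and 3 lower (median 0.29, from -0.31 to 0.85), against 31.2% higher and 33.6% lower over all H4K8ac genes. The ranges overlapped widely. The medians differed by 0.28 on the log2 scale for each mark. Not every class of the ubiquitin pathway lay below the proteasome genes. E2 genes had medians of 1.01 for H4K5ac, above the proteasome median, and 0.57 for H4K8ac, equal to it. The single ubiquitin gene, ubq-2, had 0.92 and 0.54, deubiquitinases had 0.41 and 0.29, and cullin-RING genes 0.01 and 0.16.

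The gap between proteasome genes and all ubiquitin pathway genes, taken against the mean of the inputs, was above 0 in every IP library. It measured 0.39, 0.30 and 0.29 in H4K5ac IP replicates 1, 2 and 3, and 0.34, 0.26 and 0.27 in those of H4K8ac. Genes of a class are not replicates of one another, so no test was made of the gap. Of the proteasome genes, only pas-2, rpn-11, rpt-4 and rpt-6 were in both tables, so the gaps for the marks rest on partly different genes.

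**Figure D3:**
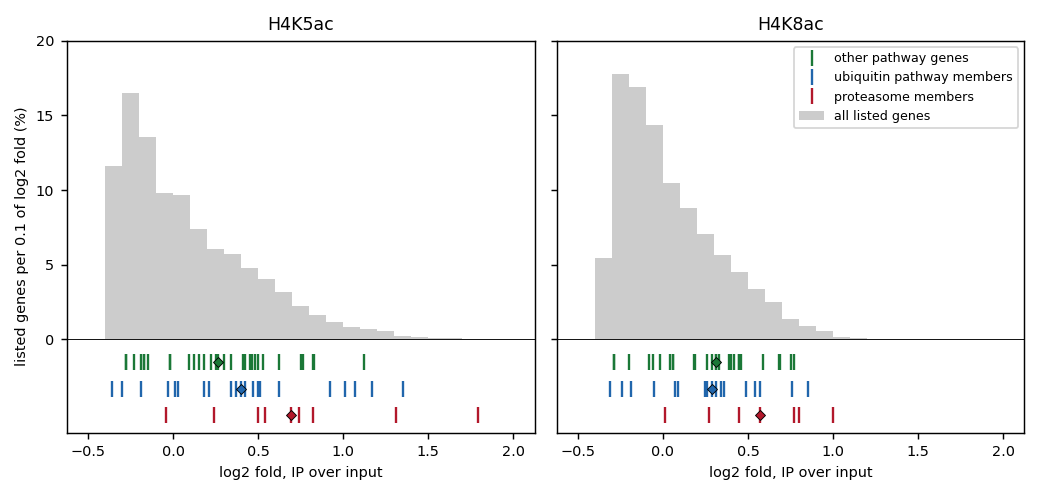
Distribution of log2 folds over all listed genes (grey bars, percent of genes per 0.1 of log2 fold) with a tick for each proteasome gene (red), ubiquitin pathway gene (blue) and other pathway gene (green), diamonds marking the class medians. Proteasome medians of 0.69 and 0.57 lie to the right of the ubiquitin pathway medians of 0.40 and 0.29, and the peak of the distribution of all listed genes lies below 0.

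For the 19 genes in both tables, folds for H4K5ac ran parallel to those for H4K8ac. The Spearman correlation across these genes was 0.98, against 0.87 across all 3750 genes that the tables share, a description over genes whose inputs and neighbours are alike for each mark. The same 14 of 19 were higher and the same gene, skr-3, was lower for both marks. The share of all 3750 shared genes called alike was not computed, so this count has no background beside it. High genes had larger folds for H4K5ac: rpt-6 with 1.31 against 0.77, usp-3 with 1.17 against 0.85, ubc-3 with 1.07 against 0.76, ubc-8 with 1.01 against 0.57 and ubq-2 with 0.92 against 0.54. Genes with small folds lay close together: pas-2 had 0.24 against 0.27, csn-3 0.21 against 0.25 and rpt-4 -0.04 against 0.01.

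The difference of these folds was tested in a single edgeR fit of all 12 libraries. It passed an adjusted p of 0.05 for 0 of 19 genes, and for 0 of 3750 genes in all (0%). At an unadjusted p under 0.05, 4 of 19 genes differed, all with the higher fold for H4K5ac, against 549 of 3750 genes (14.6%) in either direction and 334 (8.91%) in that one. They were ubc-8 (difference 0.41 ± 0.12, edgeR adjusted p = 0.215), ubq-2 (0.37 ± 0.13, edgeR adjusted p = 0.243), rpt-6 (0.52 ± 0.19, edgeR adjusted p = 0.256) and ubc-3 (0.29 ± 0.13, edgeR adjusted p = 0.306). Of the 19 differences, 11 were above 0, against 48.4% over all genes. DESeq2 called 0 of the 19 genes and 41 of 3750 (1.09%).

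The result of that test turned on 1 library. Without H4K5ac IP replicate 3, the IP library of that mark with the narrowest spread, 5 of 19 genes passed, against 193 of 3750 (5.15%). These were rpt-6 (0.66), ubc-8 (0.53), ubq-2 (0.45), usp-3 (0.45) and ubc-3 (0.40), with edgeR adjusted p-values from 0.0128 to 0.048. The width of the IP libraries' spread differed between the marks, and its part in these differences was not tested. Inputs of the marks, compared in the same edgeR fit, differed for 0 of 19 genes at an adjusted p of 0.05, with 0 of 3750 in all, and for 1 of 19 at an unadjusted p under 0.05 (cul-5, -0.16 ± 0.07, edgeR adjusted p = 0.892), against 4.8% of all genes. DESeq2 called none there.

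**Figure D4:**
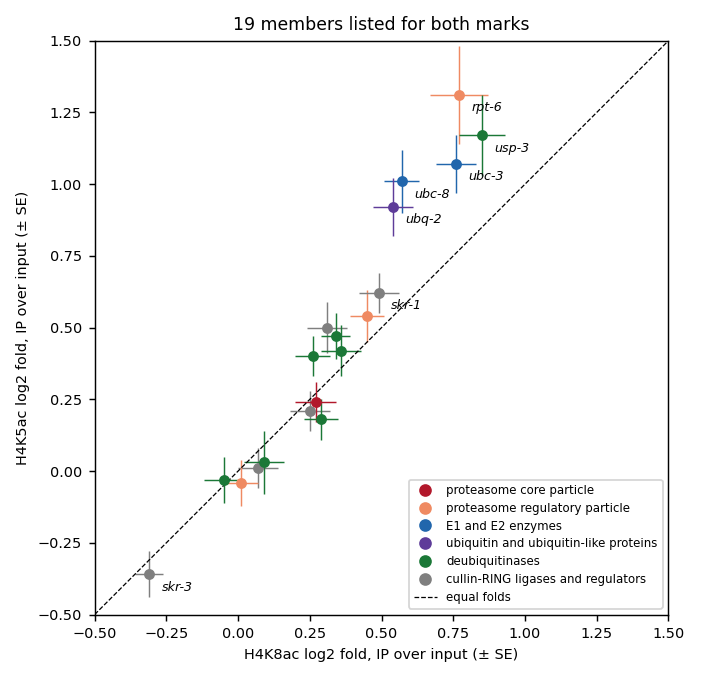
Log2 fold for H4K5ac against that for H4K8ac, each with its standard error, for the 19 genes in both tables, coloured by class; the dashed line marks equal folds. The 5 genes with the highest folds (rpt-6, usp-3, ubc-3, ubc-8 and ubq-2) lie above the line, and skr-3 lies at the lower left.

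Further genes of the pathway, which carry other names, were taken from a list mainly of ligases, ubiquitin-like modifiers, shuttle factors and deubiquitinases. That list also held E2-like genes, partners of CDC-48 and the stress factor gene skn-1, which did not pass for H4K5ac (-0.15 ± 0.08). For H4K5ac, 19 of 31 listed genes were higher, 4 lower and 8 not past the threshold, with a median log2 fold of 0.26. Of all genes 32.2% were higher and 29.5% lower, with a median of -0.02. For H4K8ac, 18 of 27 were higher, 3 lower and 6 not past, with a median of 0.31, against 31.2% higher, 33.6% lower and a median of -0.04 over all genes. The HECT-type ligase gene eel-1 was highest for H4K5ac, with 1.12 ± 0.11, and had 0.69 ± 0.07 for H4K8ac. The wdr-23 gene, a CUL-4 substrate receptor that holds the stress factor SKN-1 in check, came next for H4K5ac with 0.83 ± 0.10. The hecd-1 gene, another HECT-type ligase, had 0.82 ± 0.10 for H4K5ac and 0.75 ± 0.09 for H4K8ac. A further HECT-type ligase gene, herc-1, did not pass for either mark (-0.19 ± 0.08 and 0.06 ± 0.05). For H4K8ac the highest was uev-1, an E2-like protein that lacks the catalytic cysteine, with 0.77 ± 0.07.

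The lowest genes of that list had small folds. The vhl-1 gene, receptor of the ligase that degrades the hypoxia factor HIF-1, was lower for H4K8ac (-0.29 ± 0.05, edgeR adjusted p = 0.000461). The kelch-repeat genes kel-10 (-0.29 ± 0.08) and kel-1 (-0.20 ± 0.05) were also lower for H4K8ac. For H4K5ac the lowest were rpm-1, a ligase that shapes synapses and axons (-0.28 ± 0.08), ubxn-5, of the UBX family of CDC-48 partners (-0.28 ± 0.09), and kel-10 (-0.23 ± 0.08). Single libraries decided some of these calls: kel-10 for H4K5ac was lost without IP replicate 2 (-0.22, edgeR adjusted p = 0.0682), input replicate 2 (-0.23, edgeR adjusted p = 0.0676) or input replicate 3 (-0.23, edgeR adjusted p = 0.0682). The ubxn-5 call was lost without H4K5ac input replicate 2 (-0.26, edgeR adjusted p = 0.0548), and the kel-1 call without H4K8ac IP replicate 3 (-0.17, edgeR adjusted p = 0.0511).

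Regions named for pathway genes were longer than most. The 30 H4K5ac regions had a median length of 5.8 kb, against 3.8 kb for all 6432, and the 25 H4K8ac regions 6.2 kb, against 4.2 kb for all 6397. The longest, named for usp-48 (H4K8ac, 30.8 kb) and rpn-6.1 (H4K5ac, 29.8 kb), each span several genes. Across the pathway genes, the fold was larger for longer regions (Spearman correlation 0.53 over 30 genes for H4K5ac and 0.45 over 24 for H4K8ac), as it did across all listed genes (0.59 and 0.55). Regions annotated as promoter made up 33.3% of the H4K5ac regions named for pathway genes, against 36.6% of all, and 40.0% of the H4K8ac ones, against 36%. Chromosomes I and III held 56.7% of the H4K5ac regions of pathway genes, against 37.2% of all H4K5ac regions, but 40.0% of the H4K8ac ones, against 36%.

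Each region bears the name of a single gene, so most genes of the pathway have no count of their own although a region covers them. In the RefSeq annotation of WBcel235, 112 protein-coding genes carry these names. Listed regions overlapped 90 of them (80.4%) for each mark, against 53.3% of all 19971 protein-coding genes for H4K5ac and 58.1% for H4K8ac. At least 0.5 of the gene was covered in 78 and 80 of them (69.6% and 71.4%, against 42.9% and 48.5%). All 14 core particle and all 19 regulatory particle genes were covered over at least 0.5 of their length by regions of each mark. Several lay under regions near the head of the lists, such as pbs-2 under the H4K5ac region named for tba-2, 13th in that list, and pas-5 under the one named for rla-0, 43rd. At the other end, rpt-1 lay under H4K5ac region 6072 of 6432. These places follow the counts of the genes that name the regions, so they do not give the level at pbs-2, pas-5 or rpt-1.

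The ubiquitin pathway was covered less evenly. Of its 79 genes, 57 (72.2%) were overlapped for each mark. Every uba, ubq, ubh, usp and ufd gene was overlapped by regions of both marks, which takes in the E1 enzyme uba-1 and the polyubiquitin gene ubq-1. Some of these overlaps were slight: usp-39 was covered over 6.8% of its length for H4K5ac and 3.0% for H4K8ac. Of 21 ubc genes, 14 were overlapped for each mark, and ubc-1, ubc-15, ubc-17, ubc-21, ubc-22, ubc-23 and ubc-24 were missed by both. Of the deubiquitinases only otub-4 was missed. Cullin genes were overlapped in 5 of 6 cases for H4K5ac, cul-6 being missed, and in 6 of 6 for H4K8ac. COP9 signalosome genes were overlapped in 5 of 6 cases for each mark, csn-2 being missed for H4K5ac and csn-4 for H4K8ac. Of 20 skr genes only 8 were overlapped for H4K5ac and 7 for H4K8ac. Those overlapped for both marks were skr-1, skr-2, skr-3, skr-17 and skr-18, and the cluster skr-8, skr-9, skr-12 and skr-13 on chromosome IV was missed by both. The lists are cut by IP over input, so a missed gene is not shown to lack the mark.

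**Figure D5:**
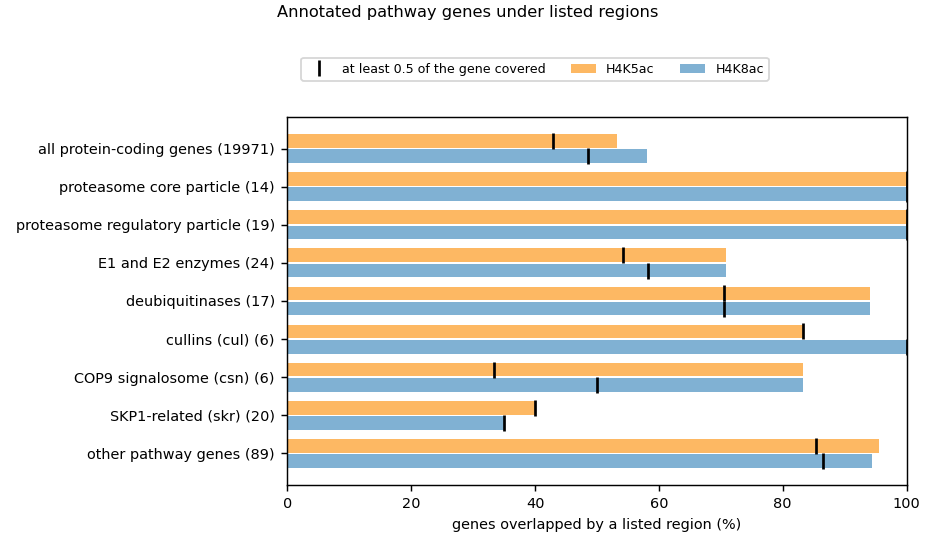
Percent of annotated protein-coding genes overlapped by a listed region, by class, for H4K5ac (orange) and H4K8ac (blue), with the number of genes in brackets; black ticks give the percent covered over at least 0.5 of their length. Both proteasome classes reach 100%, while skr genes reach 40.0% and 35.0%, below the 53.3% and 58.1% of all protein-coding genes.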

How the data were processed

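The authors deposited, for each library, a list of peak regions with 1 estimated count per gene, not normalized and repeated on each region of the gene. Tools named in the submitters' processing notes, with no role stated, are MACS2 2.1.0, Bowtie 1.1.2, Trimmomatic 0.33 and bcl2fastq 2.17, beside the builds hg38 and WBcel235. How reads were counted, and whether replicates were pooled for calling regions, are steps not given in the sources used here. Of the regions, 99.98% lay on the chromosome of their gene in WBcel235. Names turned into dates, 7 and 6 in the tables, were read from the transcript.

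Counts were rounded and tested with edgeR 4.0.16 in R 4.3.3 (quasi-likelihood, TMM). The low-count filter removed 0 genes, and the common dispersions were 0.00514 (H4K5ac), 0.00254 (H4K8ac) and 0.00379 (all 12 libraries over the shared genes). DESeq2 1.42.0 was an alternative. All 35 genes matched RefSeq by symbol. An overlap needed 1 bp. The steps were tested on simulated data. Replicates differed beyond counting noise (chi-square per degree of freedom 1.28 to 22.9).

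Same-numbered IP and input libraries deviated together for H4K5ac (correlations 0.277, 0.11 and 0.226). IP replicate 2, however, correlated more with input replicate 3 (0.145) than with its own number. The numbers were taken to pair libraries, from the data and not from the labels, in the alternative fit with a replicate block only. The main tests used no block, so their p-values are unpaired. Genes named with values are every listed proteasome gene, per mark the 6 highest and 4 lowest ubiquitin pathway genes past the threshold, the gene of lowest p in each family, and the 3 highest and lowest other pathway genes past it. Other genes were named after their values were seen. The members and lists were chosen with earlier results of these data known. No sequences were used here.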

Additional observations from a re-analysis of the deposited data

How the results depend on the processing

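Counts of genes past the threshold were recomputed with DESeq2 size factors, total count scaling, no filter, DESeq2's Wald test, a replicate block, 1 fit of 12 libraries and without each library in turn. For H4K5ac the count of 25 came to 14 in the fit of 12 libraries, which holds only 19 of the 30 genes; leaving out 1 library gave 22 to 26, and for H4K8ac, with 20, it gave 19 to 22. The difference between marks gave 0 to 5 genes when 1 library was left out, and the inputs gave 0 throughout. The gap between proteasome and ubiquitin pathway medians was 0.22 to 0.33 for H4K5ac (lowest without input replicate 1) and 0.23 to 0.31 for H4K8ac (lowest without IP replicate 1). Total count scaling moved the median of all genes to -0.15 for H4K5ac and -0.10 for H4K8ac. The rpt-4 fold ran from -0.12 to 0.01 for H4K5ac and from -0.01 to 0.06 for H4K8ac when 1 library was left out, and for H4K8ac it was -0.06 with total count scaling and -0.01 in the fit of 12 libraries; the cause was not tested. Of 595 values recomputed for named genes, 574 kept their direction and side of the threshold. These include the values without a filter, which could not differ because the filter removed 0 genes. The replicate block gave 26 genes for H4K5ac, 20 for H4K8ac and 0 for the difference and the inputs, and changed no call of these genes but that of skr-21. For H4K8ac same-numbered libraries did not deviate together (correlations -0.239, -0.101 and 0.066), and not every sample correlated best with its own number. The gap could not be given for genes free of coding neighbours, since 0 of 9 and 0 of 7 proteasome genes are. With 3 libraries a group, standard errors of the pathway genes' folds ran from 0.07 to 0.17 for H4K5ac and from 0.05 to 0.10 for H4K8ac, which limits what can be said of small folds such as those of otub-3, csn-3 and skr-7.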

Other observations

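Some listed regions held several genes of the pathway at once. The region named for rla-0, a ribosomal protein gene on chromosome I, covered the alpha ring gene pas-5 and the E2 gene ubc-25 for both marks, with a length of 17.4 kb for H4K5ac. The region named for F46E10.13 on chromosome V met the neighbouring deubiquitinase genes ubh-1, ubh-2 and ubh-3 for both marks. Of the 89 annotated genes on the list of other pathway genes, 85 (95.5%) were overlapped by a H4K5ac region and 84 (94.4%) by a H4K8ac region. The shares over all protein-coding genes were 53.3% for H4K5ac and 58.1% for H4K8ac. At least 0.5 of the gene was covered in 76 (85.4%) and 77 (86.5%) of the 89, against 42.9% and 48.5% of all. The genes of this list missed by both marks were dss-1, rnf-5, trim-21 and ubxn-5, and sli-1 was missed by H4K8ac alone. The ubxn-5 gene is nonetheless listed for H4K5ac, since the region named for it lies beside the gene.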
